A study of Mus musculus with 3 samples.

Results

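The nuclear genes of the mitochondrial respiratory chain were followed through 3 stages of gonad development in male mouse embryos that lack Cyp26b1. They were taken by symbol: every gene whose name starts with Nduf, Uqcr, Cox4, Cox5, Cox6, Cox7, Cox8 or Atp5, together with Sdha to Sdhd. This gave 87 genes of the 16531 that the array's probes name, measured by 108 probes. By role they fall into 7 core and 28 accessory subunits of complex I, 5 complex I assembly factors (the Ndufaf genes), 4 subunits of complex II, 7 of complex III, 19 of complex IV and 17 of complex V. Of the 87, 85 were well above background on all 6 arrays. The other two were Cox4i2, above background on 1 array, and Cox8b, above background on 0 arrays. Another 9 mouse genes with these prefixes have no named probe here: Ndufa11, Ndufa4l2, Ndufaf2, Ndufaf6, Ndufaf8, Ndufb1, Ndufb4b, Ndufb4c and Uqcr10.

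The samples were gonads at E14.5, E13.5 and E12.5, all male, all Cyp26b1-/- and all of the MCH mouse line, so the knockout is shared by every group and no control genotype was analysed here. Cyp26b1 encodes the enzyme that clears retinoic acid from the fetal testis. Each stage was measured on 2 one-colour Agilent arrays, which the series calls biological duplicates; whether embryos were pooled is not given in the sources used here. Whole gonads hold many cell types, and fewer cells of a type cannot be told apart from less RNA per cell. Each comparison asks how the genes differ between a later and an earlier stage.

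The respiratory chain passes electrons from NADH (complex I) and succinate (complex II) through coenzyme Q to complex III, then by cytochrome c to complex IV, which hands them to oxygen. Complexes I, III and IV pump protons across the inner mitochondrial membrane, and complex V, the ATP synthase, lets them flow back to make ATP. Most subunits are encoded in the nucleus and present in nearly every tissue, but several small subunits of complex IV exist as paralogs restricted to testis, muscle, heart or lung. Germ cells also carry their own versions of partner proteins, among them a testis cytochrome c and a testis ADP/ATP carrier.

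Levels are log2 signals minus the 75th percentile of the same array. A value of 0 is thus a signal equal to that percentile, and levels of different genes are not compared because each gene has its own probe. Differences are the later minus the earlier stage mean, and a gene is said to have risen or fallen where limma, fitted on all 6 arrays over 13425 genes, gave a Benjamini-Hochberg adjusted p under 0.05. The pair of E12.5 arrays was run on slide 1 and the remaining 4 on slide 2. Stage and slide therefore cannot be told apart in any comparison with E12.5, whereas E14.5 and E13.5 share slide 2.

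Probes well above background made up 65.3% to 70.2% of each array, with 0 saturated spots. The Cyp26b1 probe was itself well above background on all arrays, at 4.92 and 4.69 (E12.5), 4.26 and 4.16 (E13.5), and 4.23 and 3.78 (E14.5); where it lies relative to the deleted part is not given, so it does not check the genotype. All 6 Sertoli and all 6 germ cell markers were well above background on the 6 arrays, as were 4 of 5 measured fetal Leydig cell markers; the other, Lhcgr, was so on 4 arrays and on neither of E12.5. Erythroid markers fell in 4 of 6 cases between E14.5 and E12.5, with a median difference of -2.40. Leydig markers rose in 5 of 5, the lowest of the 4 above background on all arrays, Hsd3b1, by 3.83.

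Between E13.5 and E12.5, 14 of the 85 measured respiratory chain genes rose, 3 fell and 68 did not pass the threshold. Together that is 20.0% of them, against 31.6% of all 13425 genes (18.3% higher and 13.3% lower). Between E14.5 and E12.5, 12 rose, 8 fell and 65 did not pass, which is 23.5% against 46.5% of all genes (25.5% higher and 20.9% lower). The members' shares were thus below the background in both comparisons. Counted by arrays that do not overlap, 39 members were higher and 10 lower at E13.5 than at E12.5 (40.2% and 31.7% of all genes), and 20 were higher and 17 lower at E14.5 than at E12.5 (39.7% and 35.7% of all genes). Between E14.5 and E13.5, 0 of 85 passed by limma, where 0.0521% of all genes did (0.0447% higher and 0.00745% lower). By an unadjusted limma p under 0.05, 4 members passed, against 2470 of all 13425 genes (18.4%). Normexp background correction called 1 member higher, where it called 303 of all genes higher and 90 lower. The median difference of the members was 0.16 for E13.5 against E12.5 (all genes 0.05), -0.10 for E14.5 against E13.5 (all genes -0.02) and 0.04 for E14.5 against E12.5 (all genes 0.03).

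These counts depended on single arrays and on the scaling. A fit with 1 array left out assumes that its lone array varies like the other stages, and fewer of all genes passed in it too. Without the first E12.5 array the rises between E13.5 and E12.5 numbered 4, without the first E13.5 array 3 and without the second 3, where the rises over all genes numbered 1379, 1195 and 853 in place of 2462. The falls numbered 1, 1 and 0 (781, 781 and 541 over all genes in place of 1785). The falls numbered 1 also without the second E12.5 array, and 2 without either E14.5 array. For E14.5 against E12.5, the rises numbered 5 when the first array of E12.5, or that of E14.5, was left out, and 7 without the second of E14.5. The falls numbered 2 when the second array of E12.5, or that of E14.5, was left out. In these fits the rises over all genes numbered 2687, 2589 and 2372 in place of 3430, and the falls 1884 and 1577 in place of 2810. Of the members that passed in that comparison, 60.0% rose, against 55.0% over all genes. With each array scaled to its median instead, 5 rose and 11 fell (31.3% rose, all genes 39.4%), and after quantile normalization 19 rose and 7 fell (73.1% rose, all genes 54.3%). Median scaling moved the median of all genes in that comparison to -0.14, and the members' median to -0.12.

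**Figure D1:**
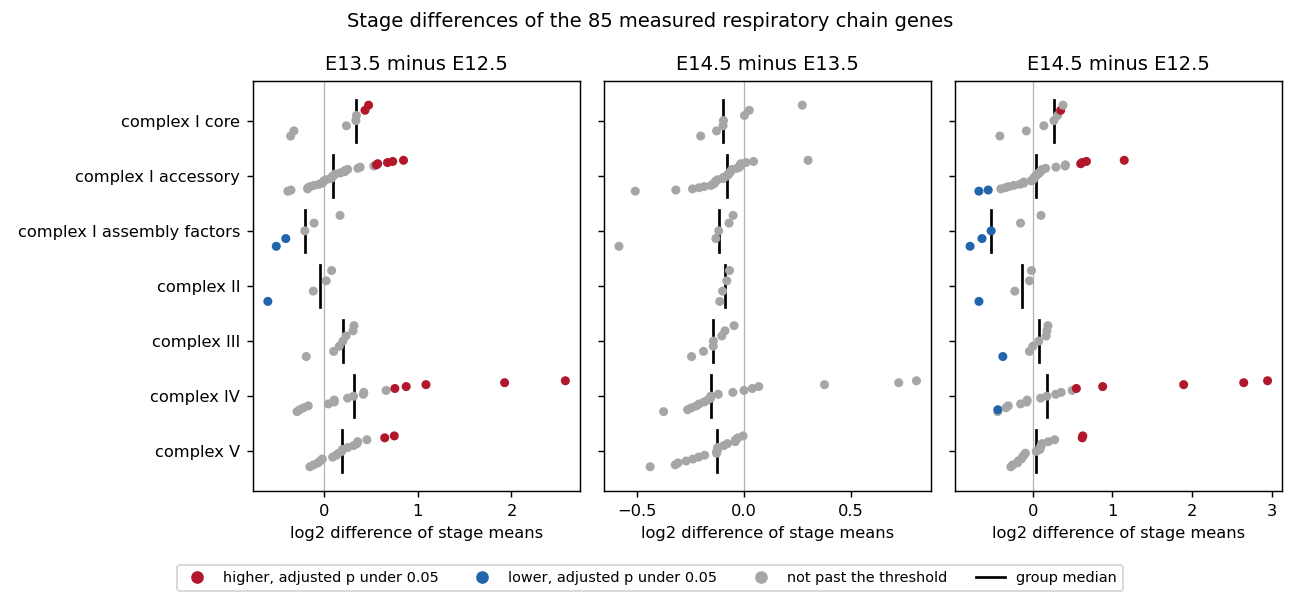
Log2 difference of stage means (x axis) for each of the 85 measured genes, in rows by complex, for the 3 comparisons; red points rose, blue points fell, grey points did not pass the threshold, and black bars are group medians. The long right tail of complex IV holds 4 tissue-restricted isoforms, and no point of the middle panel is coloured.

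The widest differences were in complex IV, and in its tissue-restricted subunit isoforms. Of the 17 measured complex IV genes, 5 rose (29.4%, all genes 18.3%) and 0 fell at E13.5 relative to E12.5. At E14.5 relative to E12.5, 5 rose (29.4%, all genes 25.5%) and 1 fell (5.88%, all genes 20.9%). Of those rises, 4 in each comparison were isoforms: Cox8c, Cox7b2 and Cox6b2, which in adult mammals belong to testis and sperm, and Cox6a2, which belongs to heart and skeletal muscle. The grouping as tissue-restricted isoforms (with Cox7a1, Cox4i2 and Cox8b) was made after the values were seen and is given as a description.

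Cox8c, the testis form of a small complex IV subunit, stood at -3.48 and -2.58 (E12.5), -0.46 and -0.45 (E13.5), and -0.15 and -0.01 (E14.5). Both later stages lay above both E12.5 arrays, which differed from each other by more than any later pair. The rise was 2.57 ± 0.28 (SE, 5.96-fold, limma adjusted p = 0.00357) at E13.5 and 2.95 ± 0.28 (7.73-fold, limma adjusted p = 0.00112) at E14.5, each relative to E12.5. Its ubiquitous paralog Cox8a stood at 5.15 and 5.41 (E12.5), 5.51 and 5.27 (E13.5), and 5.30 and 5.11 (E14.5), with overlapping stages. Relative to E12.5 its difference was 0.11 at E13.5 and -0.08 at E14.5 (limma adjusted p = 0.60 and 0.70).

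Cox7b2, the testis paralog of Cox7b, stood at -4.27 and -3.76 (E12.5), -2.16 and -2.03 (E13.5), and -1.42 and -1.31 (E14.5). The 3 stages did not overlap and lay in order of age. Relative to E12.5 it rose by 1.93 ± 0.18 at E13.5 (SE, 3.80-fold, limma adjusted p = 0.00276) and by 2.65 ± 0.18 at E14.5 (6.28-fold, limma adjusted p = 0.000595). Within slide 2, E14.5 was 0.72 above E13.5 (limma adjusted p = 0.141). Cox7b stood at 3.10 and 3.51 (E12.5), 3.25 and 3.03 (E13.5), and 3.02 and 2.91 (E14.5), with differences from E12.5 of -0.17 at E13.5 and -0.34 at E14.5 that did not pass (limma adjusted p = 0.476 and 0.146).

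Cox6b2, a sperm-associated form of the subunit that faces the intermembrane space, stood at 0.35 and 0.44 (E12.5), 1.21 and 1.33 (E13.5), and 1.34 and 1.21 (E14.5). The later stages lay apart from E12.5 and on top of each other. It rose by 0.88 ± 0.11 relative to E12.5 at both later stages (SE, 1.84-fold; limma adjusted p = 0.00503 at E13.5 and 0.00264 at E14.5). Its ubiquitous paralog Cox6b1 stood at 0.49 and 1.07 (E12.5), 0.57 and 0.47 (E13.5), and 0.56 and 0.38 (E14.5), and its differences from E12.5 of -0.26 at E13.5 and -0.31 at E14.5 did not pass (limma adjusted p = 0.364 and 0.252).

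The promoter windows of Cox7b2 and Cox6b2 and of their ubiquitous paralogs are shown because these pairs carry the contrast just described, with Atp5k beside them as a subunit of complex V that rose and whose window holds several of the motifs searched. Each runs 5′ to 3′ on the gene's strand, from 250 bases before to 50 after the RefSeq start in GRCm38.p6, and capitals mark the motifs named below. 
Cox7b2 (chr5:71548156-71548455, minus strand): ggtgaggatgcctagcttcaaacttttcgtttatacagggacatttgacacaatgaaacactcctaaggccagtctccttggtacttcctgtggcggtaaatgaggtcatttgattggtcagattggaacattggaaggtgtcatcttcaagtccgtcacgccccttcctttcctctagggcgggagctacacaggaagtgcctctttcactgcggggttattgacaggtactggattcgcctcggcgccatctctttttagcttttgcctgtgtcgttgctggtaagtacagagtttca
Cox7b (chrX:106015450-106015749, plus strand): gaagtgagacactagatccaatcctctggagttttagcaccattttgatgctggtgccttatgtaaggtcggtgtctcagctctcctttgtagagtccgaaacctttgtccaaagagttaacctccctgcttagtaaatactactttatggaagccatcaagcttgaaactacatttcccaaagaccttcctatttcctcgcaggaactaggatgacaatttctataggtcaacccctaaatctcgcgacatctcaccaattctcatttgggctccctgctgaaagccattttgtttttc
Cox6b2 (chr7:4753045-4753344, minus strand): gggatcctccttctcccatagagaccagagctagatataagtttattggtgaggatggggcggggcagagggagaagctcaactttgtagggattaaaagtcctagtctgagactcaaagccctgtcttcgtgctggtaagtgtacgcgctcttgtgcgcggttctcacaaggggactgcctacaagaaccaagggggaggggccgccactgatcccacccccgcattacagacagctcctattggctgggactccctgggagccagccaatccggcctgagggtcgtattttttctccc
Cox6b1 (chr7:30626065-30626364, minus strand): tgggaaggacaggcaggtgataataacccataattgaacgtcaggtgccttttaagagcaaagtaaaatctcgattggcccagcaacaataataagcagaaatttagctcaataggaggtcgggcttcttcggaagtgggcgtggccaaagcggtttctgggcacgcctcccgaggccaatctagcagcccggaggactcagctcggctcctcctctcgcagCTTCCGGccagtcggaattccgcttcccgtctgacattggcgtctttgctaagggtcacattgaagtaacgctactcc
Atp5k (chr5:108434350-108434649, minus strand): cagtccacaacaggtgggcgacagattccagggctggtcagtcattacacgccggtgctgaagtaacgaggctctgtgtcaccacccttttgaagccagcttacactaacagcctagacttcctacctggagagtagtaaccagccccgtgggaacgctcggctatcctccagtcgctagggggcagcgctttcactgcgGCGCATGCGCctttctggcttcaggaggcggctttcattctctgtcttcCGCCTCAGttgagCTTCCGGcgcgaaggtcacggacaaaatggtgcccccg

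RefSeq windows matched 72 of the 87 genes, in 77 windows. They were searched on both strands for 6 motifs chosen after the expression values were seen: NRF1 (GCGCATGC), GABPA (CCGGAAG), YY1 (AAGATGGC), ESRRA (TCAAGGTCA), CREB (TGACGTCA) and a STRA8 motif (CNCCTCAG); GABPA and YY1 matches can share 3 bases, and NRF1 matches on opposite strands can overlap, as in Atp5k. The NRF1 letters were in 14.3% of the members' windows and 2.71% of all 32851 windows, the GABPA letters in 23.4% and 8.86%, and the YY1 letters in 13.0% and 2.75%. The ESRRA letters were in 2.60% and 0.423%, the CREB letters in 3.90% and 1.79%, and the STRA8 letters in 5.19% and 7.94%. The background includes windows of every RefSeq gene kind, and the members' windows held a median of 19 CpG dinucleotides, against 7 over all windows. The 4 windows of tissue-restricted isoforms matched (Cox7b2 and Cox6b2, which rose, Cox7a1, which did not pass, and Cox8b, not measured) held 0 matches to any of the 6 and a median of 8 CpG. Other member windows also held 0 matches, among them those of Cox7b, Cox5a and Cox7c, and the Cox7b window held 5 CpG, against 10 in Cox7b2. In the sequences printed, the Cox6b1 window holds the GABPA letters on its opposite strand, and the Atp5k window holds the NRF1, GABPA and STRA8 letters. A match is only a run of letters, and its absence says only that those letters are not in the window.

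Cox6a2, the heart and muscle form of a regulatory subunit, stood at -5.28 and -5.21 (E12.5), -4.16 and -4.15 (E13.5), and -3.65 and -3.05 (E14.5). It was a dim probe, though well above background on all 6 arrays, and the stages did not overlap. Relative to E12.5 it rose by 1.09 ± 0.20 at E13.5 (SE, 2.13-fold, limma adjusted p = 0.0123) and by 1.90 ± 0.20 at E14.5 (3.72-fold, limma adjusted p = 0.00143). The E13.5 rise did not pass without the first E12.5 array or without either E13.5 array. Its ubiquitous paralog Cox6a1 had differences from E12.5 of 0.32 at E13.5 and 0.36 at E14.5 (limma adjusted p = 0.172 and 0.114).

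Cox7a1, the other muscle isoform with a measured probe, stood at 2.14 and 2.59 (E12.5), 2.92 and 2.66 (E13.5), and 2.74 and 2.34 (E14.5), and neither its E13.5 difference of 0.42 from E12.5 nor its E14.5 difference of 0.17 passed (limma adjusted p = 0.171 and 0.523). Cox7a2, its paralog in most tissues, had an E13.5 difference of 0.66 and an E14.5 difference of 0.29 and did not pass either (limma adjusted p = 0.0722 and 0.338). Cox4i2, a lung form of the regulatory subunit that answers to oxygen, and Cox8b, a heart and muscle form, gave no measured stage.

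Germ cell markers were set beside the testis isoforms. Of 6 markers, 5 rose at E14.5 relative to E12.5 and 1, Dnd1, fell, where 25.5% of all genes rose and 20.9% fell. Their summed linear signal, in units of the 75th percentile, was 36.4 and 43.1 (E12.5), 130 and 151 (E13.5), and 190 and 172 (E14.5), and none of the 6 was at background. Most of it was Stra8: without that gene the sum was 21.0 and 23.6 (E12.5), 44.4 and 44.7 (E13.5), and 47.2 and 45.1 (E14.5). Sycp3, an axial protein of meiotic chromosomes, differed by 3.24, Stra8, the retinoic acid target that opens meiosis, by 2.96, and the germ cell RNA helicase Ddx4 by 1.05. Striated muscle markers, set beside Cox6a2, rose in 2 of 4 measured cases and fell in 1, with sums of 0.943 and 1.30 (E12.5), 1.62 and 1.83 (E13.5), and 2.51 and 2.89 (E14.5). Actc1, a cardiac actin, carried that sum, which without it was 0.436 and 0.486 (E12.5), 0.394 and 0.351 (E13.5), and 0.384 and 0.334 (E14.5). Ckm, the muscle creatine kinase, was above background on 1 array. The part of either cell type in these results was not tested.

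**Figure D2:**
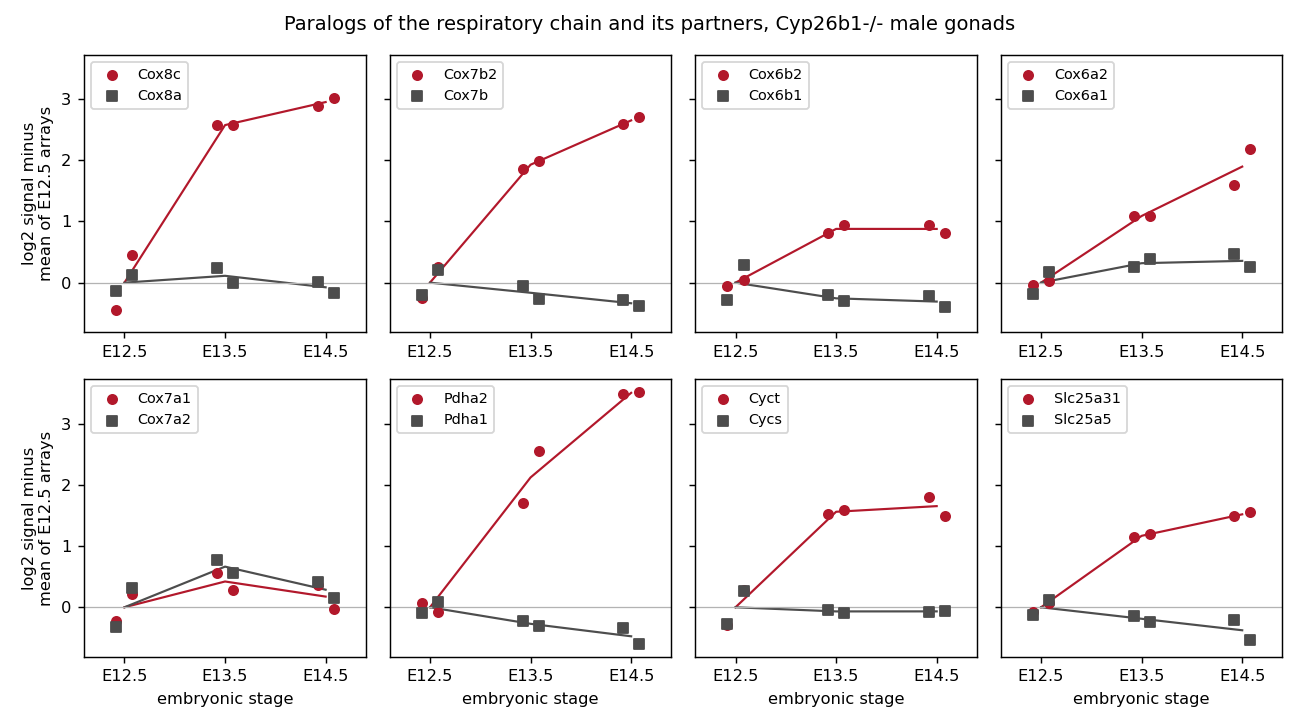
Log2 signal minus the mean of the E12.5 arrays (y axis) at each stage for 8 pairs of paralogs; each point is 1 array, lines join stage means, red is the testis or muscle form and grey a widely expressed form. The red series climb above their grey partners except Cox7a1, which stays beside Cox7a2.

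Among the other 12 complex IV genes, 1 rose and 0 fell at E13.5 and 1 rose and 1 fell at E14.5, relative to E12.5. The 8.33% that rose at each stage is below the 18.3% and 25.5% of all genes. Cox7c, a small subunit of the ubiquitous set, stood at 2.04 and 2.55 (E12.5), 3.02 and 3.08 (E13.5), and 2.83 and 2.85 (E14.5). It rose by 0.76 ± 0.18 at E13.5 (SE, limma adjusted p = 0.0246) and by 0.55 ± 0.18 at E14.5 (limma adjusted p = 0.0462), and leaving out the first E12.5 array ended both calls. Cox7a2l, which ties complex III to complex IV in supercomplexes, fell by 0.44 at E14.5 (limma adjusted p = 0.0392), a call lost in 7 of 13 other settings of the processing; these are the settings that give different fits, and the 2-fold minimum is not among them. Cox4i1, Cox5a and Cox5b, 3 nuclear subunits found in most tissues, had differences of -0.07, -0.15 and 0.10 between E14.5 and E12.5, and Ndufa4, once counted in complex I and now in complex IV, had -0.44 (limma adjusted p = 0.0535).

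In complex I, 5 of 28 accessory subunits rose between E13.5 and E12.5 and 0 fell, and between E14.5 and E12.5 the rises numbered 4 and the falls 2. The 17.9% that rose at E13.5 is near the 18.3% of all genes. At E14.5 14.3% rose and 7.14% fell, against 25.5% and 20.9% of all genes. Ndufa1, an X-linked subunit needed to build the membrane arm, stood at 3.47 and 4.03 (E12.5), 4.63 and 4.57 (E13.5), and 4.90 and 4.90 (E14.5). All later arrays lay above both E12.5 arrays, and E14.5 above E13.5. It rose by 0.85 ± 0.19 at E13.5 (SE, 1.80-fold, limma adjusted p = 0.0224) and by 1.15 ± 0.19 at E14.5 (2.22-fold, limma adjusted p = 0.00566). Its dimmer probe differed from E12.5 by 0.35 at E13.5 and 0.65 at E14.5. The E13.5 call was lost with no background filter and without either E13.5 array.

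Ndufc1, a small membrane arm subunit, stood at 3.41 and 3.76 (E12.5), 4.35 and 4.29 (E13.5), and 4.40 and 4.11 (E14.5), again with E12.5 lowest and the later stages overlapping. It rose by 0.73 ± 0.16 at E13.5 (SE, limma adjusted p = 0.0214) and by 0.67 ± 0.16 at E14.5 (limma adjusted p = 0.0186), and its second probe gave 0.85 at E13.5 and 0.75 at E14.5. Leaving out the first E12.5 array ended both calls. Ndufa7 rose by 0.68 at E13.5 and Ndufa3 by 0.62 at E14.5 (limma adjusted p = 0.043 and 0.0182), and these calls were lost in 7 and 3 of 13 other settings. Ndufa3 and Ndufab1, the mitochondrial acyl carrier protein, at E13.5 and Ndufa7 at E14.5 complete the counts and were named after their values were seen. The dimmer probe of Ndufa7 differed from E12.5 by only 0.27 at E13.5 and 0.22 at E14.5. For Ndufab1 the dimmer probe gave 0.15 at E13.5 and -0.25 at E14.5, against 0.56 and 0.41 for the brightest.

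The falls in the accessory set were Ndufb5 and Ndufa10, both subunits of the membrane arm. Ndufb5 stood at 1.87 and 2.22 (E12.5), 1.88 and 1.87 (E13.5), and 1.49 and 1.24 (E14.5), so that E14.5 lay below all other arrays. It fell by 0.68 at E14.5 relative to E12.5 (limma adjusted p = 0.0159), and its difference of -0.51 from E13.5, within slide 2, did not pass (limma adjusted p = 0.191). Ndufa10 fell by 0.56 relative to E12.5 (limma adjusted p = 0.017). Each of these calls was lost when the second array of either stage was left out.

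Among the 7 core subunits, which carry the flavin and the iron-sulfur clusters, 2 rose and 0 fell at E13.5 and 1 rose and 0 fell at E14.5, relative to E12.5. The 28.6% and 14.3% that rose stand against 18.3% and 25.5% of all genes. Ndufs7, which holds the last iron-sulfur cluster, rose by 0.44 ± 0.13 at E13.5 (SE, limma adjusted p = 0.0489). Ndufs1 rose by 0.35 ± 0.11 at E14.5 (SE, limma adjusted p = 0.0485). Both of these calls were near the threshold, and each was lost in 8 of 13 other settings. Ndufv1 and Ndufv2, the flavin subunit and its partner, had 0.14 and -0.42 between E14.5 and E12.5 and did not pass.

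Complex I assembly factors help build the enzyme and are absent from the finished complex. Of the 5 measured Ndufaf genes, 0 rose and 2 fell at E13.5, and 0 rose and 3 fell at E14.5, relative to E12.5. The falls are 40.0% and 60.0% of only 5 genes, against 13.3% and 20.9% of all genes. These 5 were set by the symbol rule. Complex I assembly factors with other symbols are in a list given below, where Ecsit rose and Nubpl fell at E14.5. Ndufaf7, a methyltransferase that acts early in assembly, stood at -0.56 and -0.61 (E12.5), -1.17 and -1.02 (E13.5), and -1.16 and -1.29 (E14.5). Both later stages lay below E12.5, by 0.51 ± 0.11 at E13.5 (SE, limma adjusted p = 0.0221) and 0.64 ± 0.11 at E14.5 (limma adjusted p = 0.00687). The E14.5 call held in the 13 other settings but is under 2-fold, and leaving out any of the 4 arrays compared ended the E13.5 call.

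Ndufaf3, which works early in assembly together with Ndufaf4, fell by 0.40 at E13.5 and by 0.52 at E14.5 relative to E12.5 (limma adjusted p = 0.0376 and 0.012). Ndufaf4 stood at 1.83 and 2.37 (E12.5), 2.09 and 1.71 (E13.5), and 1.45 and 1.17 (E14.5), and fell by 0.79 ± 0.23 at E14.5 relative to E12.5 (SE, limma adjusted p = 0.0335). Its next probe gave -0.80, but its dimmest probe gave 0.24. Of the 16 members with several probes, 7 had probes of opposite sign in this comparison, and Ndufaf4 was the only one of those 7 past the threshold. The E14.5 call for Ndufaf3 was lost when the second array of either stage compared was left out, and that for Ndufaf4 ended when its probes were averaged and in 5 other settings. The E13.5 call for Ndufaf3 was lost in 9 of 13.

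**Figure D3:**
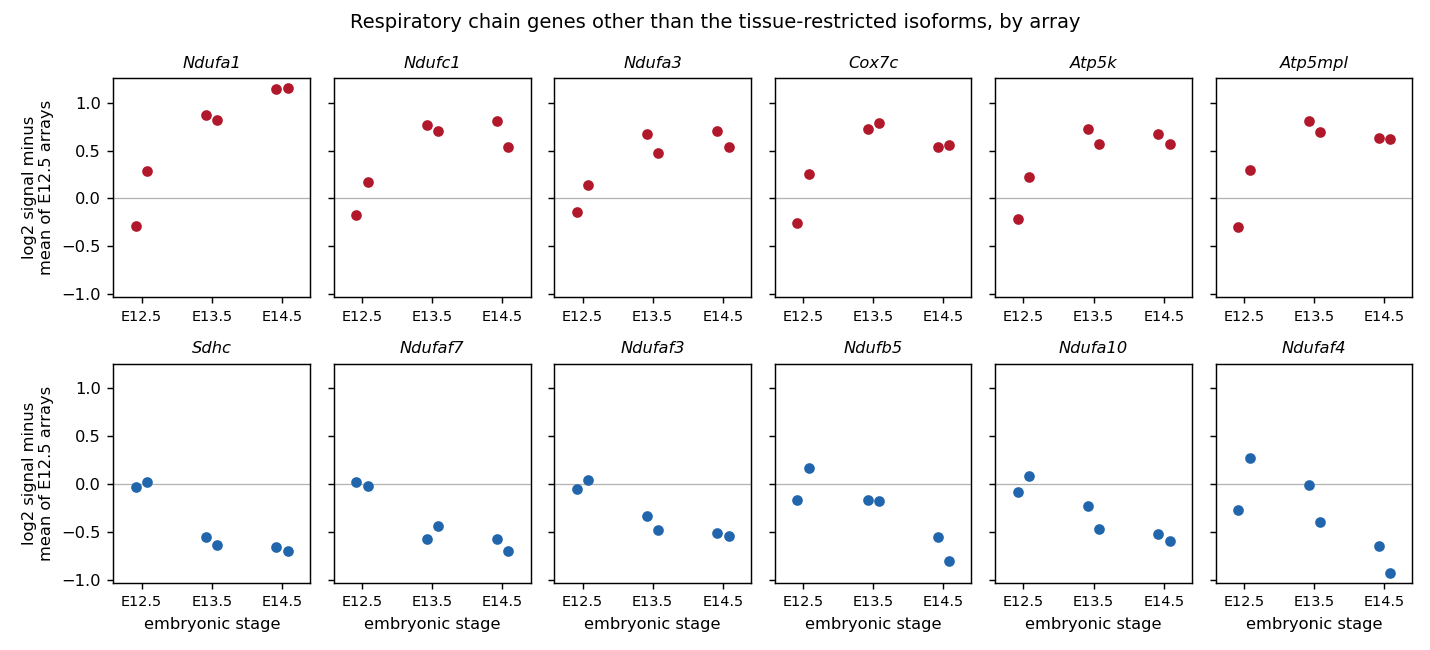
Log2 signal minus the mean of the E12.5 arrays (y axis) by stage for 12 respiratory chain genes outside the tissue-restricted isoforms; each point is 1 array. The upper row rose at both later stages and the lower row was below E12.5 at E14.5, with E13.5 differences past the threshold in the lower row for Sdhc, Ndufaf7 and Ndufaf3.

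Complex II oxidises succinate and is also an enzyme of the citric acid cycle. Of its 4 genes only Sdhc, a membrane anchor that helps hold the heme and the coenzyme Q site, passed the threshold. Its level stood at 3.13 and 3.18 (E12.5), 2.59 and 2.52 (E13.5), and 2.50 and 2.45 (E14.5). The duplicates lay within 0.10 of each other and E12.5 was apart from both later stages. Sdhc fell by 0.60 ± 0.10 at E13.5 (SE, 1.51-fold lower, limma adjusted p = 0.0103) and by 0.68 ± 0.10 at E14.5 (1.60-fold lower, limma adjusted p = 0.0042), relative to E12.5. The E14.5 call held in the 13 other settings and the E13.5 call was lost in 1 of them, without the second E13.5 array; neither difference reaches 2-fold.

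The other three complex II genes had small differences. Between E14.5 and E12.5, the flavoprotein Sdha had -0.02, the iron-sulfur subunit Sdhb -0.04 and the other anchor, Sdhd, -0.23 (limma adjusted p = 0.896, 0.844 and 0.184). No test compared Sdhc with its partners.

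Complex III, which passes electrons from coenzyme Q to cytochrome c, had 0 of 7 genes past the threshold at E13.5 and 1 fall at E14.5, relative to E12.5. At E13.5 31.6% of all genes passed, and the 14.3% that fell at E14.5 is below the 20.9% of all genes. Uqcrc2, a core subunit, stood at 4.56 and 4.71 (E12.5), 4.51 and 4.38 (E13.5), and 4.31 and 4.20 (E14.5), and fell by 0.38 ± 0.12 at E14.5 (SE, limma adjusted p = 0.0415). That call was lost in 9 of 13 other settings. Its partner Uqcrc1 had 0.19 and the Rieske iron-sulfur protein Uqcrfs1 0.17 in the same comparison (limma adjusted p = 0.287 and 0.359).

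In complex V, 2 of 17 genes rose and 0 fell at each later stage relative to E12.5. The 11.8% that rose is below the 18.3% (E13.5) and 25.5% (E14.5) of all genes. Atp5k, subunit e of the membrane part that helps pair ATP synthases, stood at 2.19 and 2.63 (E12.5), 3.14 and 2.98 (E13.5), and 3.09 and 2.98 (E14.5). Atp5mpl, a small proteolipid of the membrane part, stood at 2.54 and 3.13 (E12.5), 3.64 and 3.53 (E13.5), and 3.46 and 3.46 (E14.5). In both genes the E12.5 arrays lay below all later ones and differed from each other by more than any later pair. Relative to E12.5, Atp5k rose by 0.65 ± 0.17 at E13.5 and 0.62 ± 0.17 at E14.5 (SE, limma adjusted p = 0.033 and 0.0273), and Atp5mpl by 0.75 ± 0.20 and 0.63 ± 0.20 (limma adjusted p = 0.0351 and 0.0444). All 4 calls ended when the first E12.5 array was left out, and in other settings too. The catalytic subunit Atp5b had -0.11 and the c-ring genes Atp5g1, Atp5g2 and Atp5g3 had -0.18, -0.13 and -0.28 between E14.5 and E12.5, and did not pass.

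Between E14.5 and E13.5, on 1 slide, no respiratory chain gene passed the limma threshold. Most differences were small and below 0: 74 of 85 (87.1%), against 53.5% of all genes, while 28 members lay without overlap below E13.5 and 4 above (29.1% and 26.4% of all genes). Differences were below 0 for 17 of 17 genes in complex V, 7 of 7 in complex III and 4 of 4 in complex II. The lowest were Ndufaf4 at -0.59, Ndufb5 at -0.51 and Atp5g1 at -0.44, and the highest were Cox6a2 at 0.81, Cox7b2 at 0.72 and Cox8c at 0.38. The members' median of -0.10 was 0.00 without the second E14.5 array but -0.20 without the first. Without the first E13.5 array the median was -0.058, and without the second it was -0.154. It was -0.03 after quantile normalization (all genes -0.01) and -0.19 with median scaling (all genes -0.10). The size of this shift thus varied with the array left out and with the scaling, and its cause was not tested.

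The respiratory chain genes moved together between duplicate arrays of the same stage. The second E12.5 array was higher than the first for 77 of 85 members (90.6%), against 47.6% of all genes, by a median of 0.32. The second E13.5 array was lower than the first for 69 members (81.2%, all genes 55.2%), by a median of 0.11, and the second E14.5 array was lower for 79 (92.9%, all genes 59.0%), by a median of 0.19. The member medians, as deviations from each gene's mean over the 6 arrays, were -0.18 and 0.08 (E12.5), 0.13 and 0.04 (E13.5), and 0.08 and -0.14 (E14.5), so the stages overlapped. The members' median difference between E13.5 and E12.5 was -0.02 without the first E12.5 array, and that between E14.5 and E12.5 ran from -0.11 without the first E12.5 array to 0.17 without the second.

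**Figure D4:**
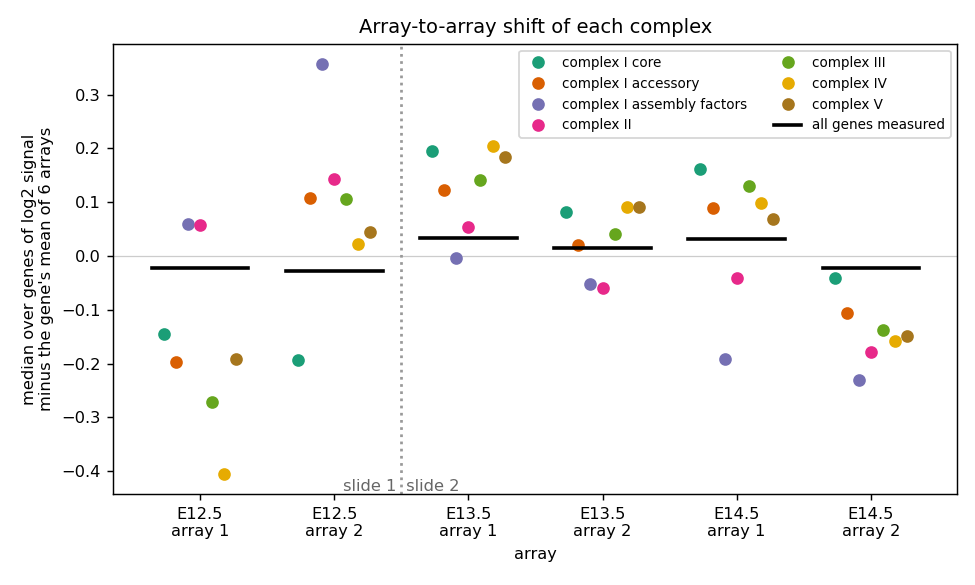
Median over the genes of each complex of the log2 signal minus the gene's mean of 6 arrays (y axis), for each array (x axis); black bars are all genes measured, and the dotted line parts the slides. Complex IV lies at -0.41 and 0.02 on the E12.5 arrays, while the bars of all genes stay near 0.

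Partners of the chain outside these symbols also have testis paralogs. In a list of 11 electron carriers and ATP exporters, 3 rose and 2 fell at E14.5 relative to E12.5. These are 27.3% and 18.2%, near the 25.5% and 20.9% of all genes. Cyct, the testis cytochrome c, stood at 0.81 and 1.39 (E12.5), 2.62 and 2.70 (E13.5), and 2.91 and 2.60 (E14.5), and rose by 1.65 ± 0.21 at E14.5 (SE, 3.14-fold, limma adjusted p = 0.00263), while the somatic Cycs had -0.07 (limma adjusted p = 0.785). Slc25a31, the testis ADP/ATP carrier, rose by 1.52 ± 0.11 (2.87-fold, limma adjusted p = 0.000625), while Slc25a4 fell by 0.43 (limma adjusted p = 0.0401) and Slc25a5 had -0.38 (limma adjusted p = 0.0947). Etfdh, which feeds electrons from fatty acid oxidation to coenzyme Q, rose by 0.50, and Etfa, a subunit of its electron donor, fell by 0.55 (limma adjusted p = 0.0136 and 0.0168).

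Of 19 genes of the citric acid cycle and pyruvate dehydrogenase, 3 rose and 4 fell at E14.5 relative to E12.5. The shares were 15.8% and 21.1%, against 25.5% and 20.9% of all genes. Pdha2, the testis form of the pyruvate dehydrogenase subunit, stood at -5.42 and -5.57 (E12.5), -3.80 and -2.95 (E13.5), and -2.01 and -1.98 (E14.5), in 3 stages without overlap. It rose by 3.50 ± 0.27 at E14.5 (SE, 11.3-fold, limma adjusted p = 0.000682), and its X-linked counterpart Pdha1 fell by 0.47 (limma adjusted p = 0.0322). Pdha2 was a dim probe at E12.5, though well above background on all 6 arrays. The lowest signals well above background on the E12.5 arrays were -6.41 and -6.21. Suclg2, a succinyl-CoA ligase subunit, fell by 0.91, Idh3a, of the NAD-dependent isocitrate dehydrogenase, by 0.82 and Dld, a subunit shared by several dehydrogenases, by 0.52. Ogdh and Pdhx rose by 0.58 and 0.34.

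Of 33 assembly factors with other symbols, 4 rose and 2 fell at E14.5 relative to E12.5. The shares of 12.1% and 6.06% were below the 25.5% and 20.9% of all genes. Ecsit, of the complex I assembly machinery, rose by 0.93 and Ttc19, of complex III, by 0.74, and Cox19 and Cox10, of complex IV, rose by 0.55 and 0.52 (limma adjusted p between 0.00484 and 0.0148 for the 4). Nubpl, which delivers iron-sulfur clusters to complex I, fell by 0.97 (1.96-fold lower, limma adjusted p = 0.00276), and Sdhaf1, of complex II, by 0.38 (limma adjusted p = 0.043).

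Of 20 regulators of mitochondrial biogenesis, 2 rose and 7 fell at E14.5 relative to E12.5, where 25.5% of all genes rose and 20.9% fell, with a median of -0.28 against 0.03 over all genes. Ppargc1a, the coactivator PGC-1 alpha, stood at -0.94 and -1.24 (E12.5), -2.21 and -2.61 (E13.5), and -2.81 and -2.95 (E14.5), in 3 stages without overlap, and fell by 1.79 ± 0.18 at E14.5 relative to E12.5 (SE, 3.46-fold lower, limma adjusted p = 0.00127). Esrrb, an orphan receptor also known from pluripotent cells, fell by 2.19 and Myc by 1.26. Gabpa and Gabpb1, partners in the same transcription factor, each fell, by 0.63 and 0.61, and Tfam, which packs mitochondrial DNA, by 0.61 (limma adjusted p between 0.00643 and 0.0109 for the 3). Nrf1 had -0.25 and did not pass (limma adjusted p = 0.253). Twnk, the mitochondrial helicase, and Polrmt, the mitochondrial RNA polymerase, rose by 0.84 and 0.51.

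In the mitochondrial ribosome, which translates the subunits that mitochondrial DNA encodes, 1 of 76 genes rose and 15 fell at E14.5 relative to E12.5, with a median of -0.12. The 1.32% that rose is below the 25.5% of all genes, and the 19.7% that fell is close to the 20.9% of all genes. The median over all genes was 0.03. The lowest were Mrpl15 at -1.25 and Mrpl18 at -1.09 (limma adjusted p = 0.002 and 0.00164), and Mrps16 rose by 0.47. In the list for coenzyme Q and heme, which the chain needs as cofactors, 5 of 19 rose and 5 fell. That is 26.3% each way, where 25.5% of all genes rose and 20.9% fell. Alas1, the entry enzyme of heme synthesis in non-erythroid cells, rose by 2.06 ± 0.15 (SE, 4.18-fold, limma adjusted p = 0.000632) and Coq8a by 1.14, while Uros and Cpox, later enzymes of heme synthesis, fell by 0.70 and 0.57. Markers of Leydig cells, whose steroid synthesis uses heme enzymes, rose in 5 of 5 cases and erythroid markers fell in 4 of 6. Of the Leydig cell markers, Lhcgr was at background on both E12.5 arrays and was kept only through the later stages. The part of these cell types in these lists was not tested.

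Over the 13 other settings that give different fits, 7 of the 19 named calls for E14.5 against E12.5 held: Cox8c, Cox7b2, Cox6b2, Cox6a2, Ndufa1, Ndufaf7 and Sdhc. With the 2-fold minimum as well, 4 held, without Cox6b2, Ndufaf7 and Sdhc. For E13.5 against E12.5, 3 of 15 held over the 13 settings, Cox8c, Cox7b2 and Cox6b2, and 2 with the 2-fold minimum as well, without Cox6b2.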

How the data were processed

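Per the series text and labels, 2 one-colour arrays were hybridised at each of 3 stages. Per the submitters' processing notes and the file headers, the deposited spot intensity comes from Agilent Feature Extraction 9.5 and was background-subtracted but not scaled between arrays. The authors' deposited table gives each probe a linear ratio at each stage, with an unstated baseline. Over 12478 genes, which are not independent replicates, its log2 stage differences correlated at 1.0 with the scanner ones, offset by 0.10 (E13.5 minus E12.5), -0.11 (E14.5 minus E13.5) and -0.02 (E14.5 minus E12.5). In the authors' deposited table the members' medians were 0.25, -0.22 and 0.02 in that order.

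Signals were log2-transformed and each array's 75th percentile was subtracted. Of 41174 probes, 21 lacked a value on some array and were dropped; RefSeq accessions named 23366 probes of 16531 genes and 17787 had no symbol. The brightest probe stood for the 5449 genes with several. Genes well above background on both arrays of a stage were kept (13425). Stage contrasts were fitted in R 4.3.3 by limma 3.58.1 (lmFit, eBayes, two-sided, all 6 arrays). The procedure was tested on simulated data. Named genes were the 3 largest rises and falls past the threshold without overlap in each complex group, the largest 3 each way for E14.5 against E13.5, named isoforms and core subunits, and members with probes of opposite sign. Some single genes counted in the groups are not reported here by name. The members, lists and motifs were chosen with earlier results of these data known. Alternatives were normexp (offset 50), quantile and median scaling, background filters, the mean of probes, a trended prior, a replicate block, the 4 arrays compared, a minimum of 2-fold, and each array left out in turn. The number of arrays limits the precision. Python 3.11.15, pandas 2.3.3 and matplotlib 3.10.9 were used.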

Additional observations from a re-analysis of the deposited data

How the results depend on the processing

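The counts of respiratory chain genes past the threshold moved with the processing. For E13.5 against E12.5, the 14 rises became 22 with normexp correction, 7 with median scaling, 5 with no background filter, 8 with the replicate number as a block and 3 with a 2-fold minimum, and 3 to 15 when 1 array was left out. Over all genes the 2462 rises became 3263, 1695, 1675, 2204 and 752 in these settings, and 853 to 2292 with 1 array left out. The 3 falls became 0 with a 2-fold minimum and 0 to 2 with 1 array left out. For E14.5 against E13.5, normexp correction gave 1 rise in place of 0, where the rises over all genes became 303 in place of 6. For E14.5 against E12.5, the 12 rises became 19 after quantile normalization, 5 with median scaling, 4 with a 2-fold minimum and 5 to 13 with 1 array left out, and the 8 falls became 14 with normexp correction, 5 with the replicate block, 0 with a 2-fold minimum and 2 to 8 with 1 array left out. Over all genes, 3430 rises became 3444, 2325 and 1249 with quantile, median scaling and the 2-fold minimum, and 2810 falls became 2826, 2601 and 670 with normexp, the block and the 2-fold minimum. The causes were not tested. Whether the replicate numbers pair the samples was not tested. Duplicate differences correlated across genes at -0.04 between E12.5 and E13.5, -0.06 between E12.5 and E14.5, and 0.23 between E13.5 and E14.5. No named call reversed. Of the named genes not past the threshold, 3 of 21 passed in some setting for E13.5 against E12.5, 1 of 29 for E14.5 against E13.5 and 6 of 19 for E14.5 against E12.5. The member medians moved by less than 0.19 under the alternatives run, which is the pooled standard deviation of array medians within a stage. That spread is larger in size than each member median (0.16, -0.10 and 0.04). Staying within it therefore does not show that a median was stable, and their sign was not stable. The random block for slide could not be fitted, since slide is fixed by stage, and was not run. For each comparison, leaving out an array of the third stage gives the same fit as using the 4 arrays compared.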
